A study of Mus musculus with 6 samples.

Results

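The Kruppel-like factors described here are 9 genes, Klf3, Klf4, Klf5, Klf6, Klf7, Klf9, Klf10, Klf12 and Klf13, taken by name from the authors' deposited isoform table. Their 33 isoforms are among 60744 isoforms of 17022 gene names in that table, and all 9 genes passed the filter on low values, a mean of 1 FPKM over the 6 libraries. FPKM scales the sequenced fragments to the length of the transcript and to all fragments mapped in the library, so levels can be set side by side between genes, but sequencing depth cannot be read from it.

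The RNA came from neurons cut by laser out of dorsal root ganglia, which hold the cell bodies of the sensory neurons of the body. The ganglia lay at lumbar levels 3, 4 and 5 on the operated side. The mice were males of strain C57Bl/6, adult by 1 label and aged 4 to 6 weeks by another. In the crush group the sciatic nerve had been crushed for 10 seconds, and in the sham group the nerve had only been exposed for 10 seconds, in both cases 7 days before the ganglia were taken. Each group had 3 polyadenylated-RNA libraries, called crush 1 to 3 and sham 1 to 3 here. The number of animals behind a library is not given in the sources used here, nor whether replicate libraries are separate animals, and the spread that the p-values rest on could therefore be technical. No source used here tells which of the cells projected through the operated nerve.

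Kruppel-like factors are transcription factors that bind GC-rich and CACCC sequences in DNA through 3 zinc fingers at their carboxyl end. They fall into groups by the partners of their other end: Klf3 and Klf12 recruit the co-repressor CtBP, Klf9, Klf10 and Klf13 the co-repressor Sin3a, while Klf4, Klf5, Klf6 and Klf7 can also activate transcription. In cultured rodent neurons of the central nervous system Klf6 and Klf7 are known to favour, and Klf4 and Klf9 to restrain, the growth of axons, and in the mouse Klf7 is needed for pain-sensing neurons.

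In each library 12087 to 12347 genes had at least 1 FPKM. The injury genes Atf3, Sprr1a and Npy, which sensory neurons are known to switch on after axon damage, all rose in the crush group, Atf3 to 171 ± 21.8 FPKM, against 50.5 ± 14.3 FPKM in the sham group (SD, n = 3 each). Atf3 did not pass without any 1 of the crush libraries (limma, adjusted p = 0.0506 to 0.0679). Of 7 neuron markers tested 0 passed, and their summed level was 5516 to 6356 FPKM in crush and 5010 to 6911 FPKM in sham libraries. Within that list Isl1 had 34.1 to 36.2 FPKM in crush and 40.95 to 43.4 FPKM in sham libraries, and Rbfox3 62.3 to 66.2 FPKM in crush and 72.0 to 85.4 FPKM in sham libraries, both lower in crush without overlap. The other neuron markers overlapped between the groups, and the median log2 change of the list was -0.06. Tubb3 was the only one with a positive change (0.27). Isl1 passed without sham 2 (limma, adjusted p = 0.0222) and with limma array weights, which down-weight libraries that stray from the fit (0.0148). In these settings 1174 and 1429 of all 12289 genes passed, against 464 with all 6 libraries unweighted. Sham 2 stood apart: across the 12289 genes tested it correlated with sham 1 at r = 0.978 and with sham 3 at 0.981, against 0.993 to 0.996 among the crush libraries (across genes, which are not independent replicates). Sham 2 was the lowest of the 6 libraries in 6 of the 9 members, and in 31.4% of all genes tested.

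All 9 genes were detected in every library, at levels that spread over a wide range. Klf7 had the highest mean level over the 6 libraries, at 50.4 FPKM, and its range did not touch that of any other member. Klf13 (22.6 FPKM), Klf9 (21.2 FPKM) and Klf6 (18.7 FPKM) followed, with ranges over the 6 libraries that overlapped between neighbours. Klf5 (10.01 FPKM) and Klf10 (9.30 FPKM) also overlapped, and lay apart from Klf6 above them and from Klf3 below. Klf3 (3.48 FPKM), Klf12 (1.64 FPKM) and Klf4 (1.43 FPKM) were the lowest, and neighbours in this order overlapped. The order was not the same in both groups: Klf6 lay below Klf9 in the sham libraries without overlap, at 11.6 to 16.2 FPKM against 16.9 to 21.0 FPKM for Klf9, and overlapped with it after crush, at 22.1 to 25.8 FPKM against 22.4 to 24.2 FPKM.

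**Figure D1:**
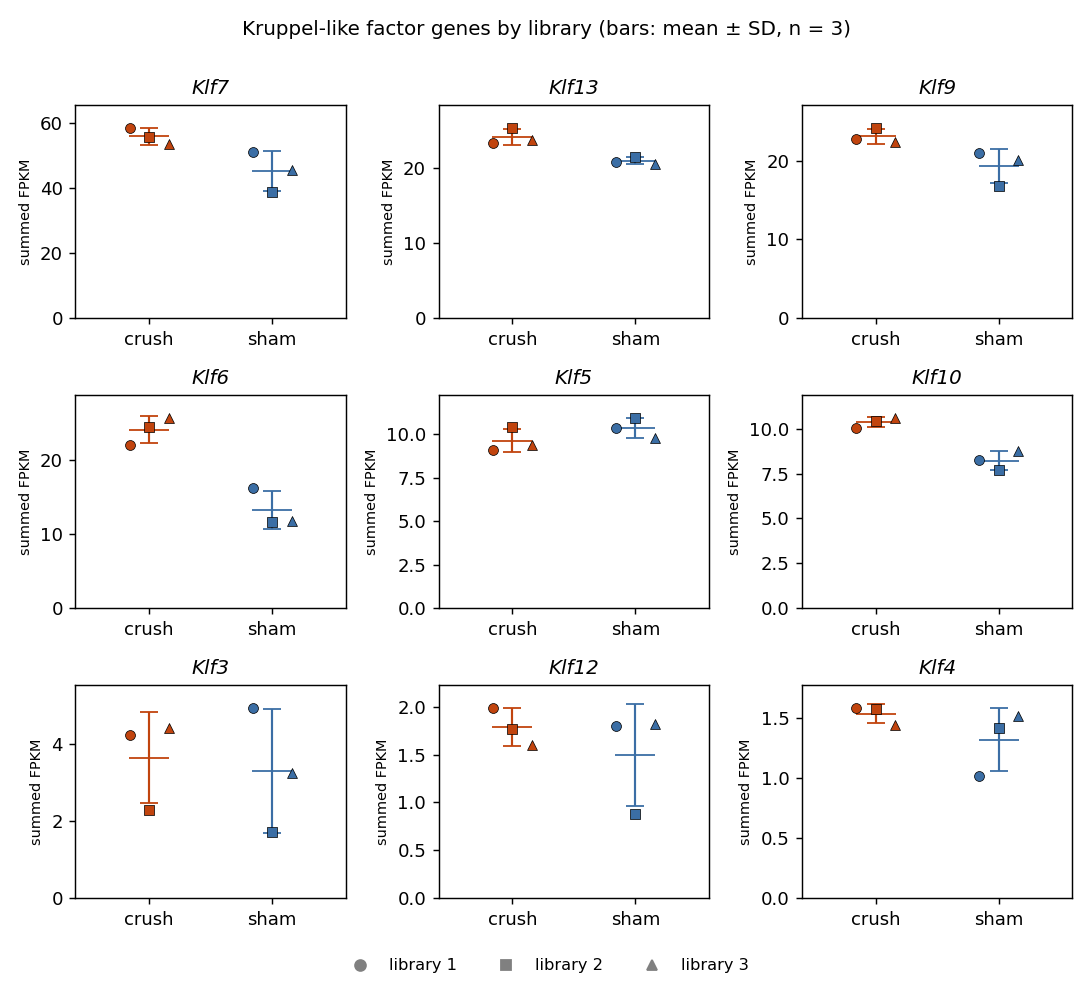
Summed FPKM of the 9 Kruppel-like factor genes (vertical axes, each from 0) in the crush and sham groups (horizontal axes), ordered by mean level. Symbols are the 3 libraries of a group, long bars the mean and whiskers the SD. The crush libraries lie above all sham libraries for Klf7, Klf13, Klf9, Klf6 and Klf10, and the groups overlap for Klf5, Klf3, Klf12 and Klf4.

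Whether these genes differed after crush was tested in a linear model over all genes, and 1 of the 9 passed, Klf6, which rose. The share of all tested genes that passed was 3.78% in either direction, 2.38% upwards and 1.39% downwards (limma on log2(FPKM + 1), adjusted p under 0.05). In such bulk samples more RNA per cell and more cells of a kind cannot be told apart. In 5 members, Klf6, Klf7, Klf9, Klf10 and Klf13, the 3 crush values lay above the 3 sham values, and in 0 members below. Of all genes tested 26.3% had groups that did not overlap, and 12.2% had every crush value above every sham value. The log2 change was positive in 8 members and negative in Klf5, with a median of 0.20, while 45.9% of all genes had a positive change and the median over all genes was -0.02. Unadjusted p-values were under 0.05 in 5 members, and in 17.6% of all genes. Because the members were chosen with earlier results of these data known, these counts are given as a description.

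Klf6, which is known to be induced by stress and cytokines and to favour axon growth, had 22.1, 24.5 and 25.8 FPKM in crush 1 to 3, against 16.2, 11.6 and 11.8 FPKM in sham 1 to 3. The crush libraries were close together, and sham 1 was the highest of the sham libraries. The mean was 24.1 ± 1.85 FPKM in crush and 13.2 ± 2.59 FPKM in sham libraries (SD, n = 3 each), a ratio of means of 1.82. The log2 change was 0.83 with a standard error of 0.13 (limma, adjusted p = 0.0244). Klf6 is the only member given as a single isoform, so its value does not rest on how reads were divided between isoforms. It has 4 exons and 4211 bases, lies on the plus strand of chromosome 13 from 5860734 to 5869632 in the mm9 build, and its exons overlapped with those of no other quantified gene. The authors' deposited intervals were 17.1 to 27.2, 18.9 to 30.1 and 19.9 to 31.6 FPKM in crush 1 to 3, and 12.5 to 20.0, 8.85 to 14.4 and 9.02 to 14.7 FPKM in sham 1 to 3. The interval of sham 1 thus overlapped with all 3 of the crush group. In the authors' deposited table, which compares pooled groups, the log2 fold change was 0.76 with a q-value of 5.36e-14.

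The direction of the Klf6 change held without each library in turn (log2 change 0.75 to 0.98), but the call did not. It was lost without crush 1 (limma, adjusted p = 0.0933), crush 2 (0.110), crush 3 (0.108) or sham 3 (0.102), and held without sham 1 (0.0184) and sham 2 (0.0154).

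The genes whose pattern over the 6 libraries was most like that of Klf6 included genes of myeloid cells. By the root mean square difference of log2(FPKM + 1) after centring each gene, the nearest of 12288 genes was Epb4.1l4a, which codes for a protein of the band 4.1 family (difference 0.09). It had 9.60, 9.24 and 10.2 FPKM in crush 1 to 3, against 5.67, 4.36 and 4.81 FPKM in sham 1 to 3. Next came Lyz2, the lysozyme of macrophages and neutrophils (difference 0.11), with 43.7, 46.7 and 50.1 FPKM in crush 1 to 3, against 27.5, 25.9 and 23.5 FPKM in sham 1 to 3. The third was Lilrb3, a receptor of leukocytes (difference 0.11), with 2.17, 1.95 and 2.47 FPKM in crush 1 to 3, against 1.33, 0.663 and 0.455 FPKM in sham 1 to 3. These 3 genes were picked on these same values for their likeness to a called gene. Their higher crush values and small p-values therefore follow from the choice and are given as a description. Epb4.1l4a and Lyz2 passed, while Lilrb3 did not (limma, adjusted p = 0.00969, 0.00717 and 0.0549). Epb4.1l4a did not pass without crush 1, crush 2, crush 3 or sham 3 (adjusted p = 0.0507 to 0.0679), and Lilrb3 passed without sham 1 (0.0269) or sham 2 (0.0484).

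Macrophage markers rose with the crush group, beside the Klf6 result. Of 7 tested, 6 rose, namely Csf1r, C1qa, C1qb, C1qc, Cx3cr1 and Itgam, 0 fell and Aif1 did not pass (limma, adjusted p = 0.0622). Csf1r and C1qc passed also without each library in turn. C1qa, C1qb and Itgam passed only where sham 2 was the library left out (limma, adjusted p = 0.0514 to 0.135 without any other). Cx3cr1 passed without sham 1 or sham 2 (adjusted p = 0.0525 to 0.0837 without any other). Their median log2 change was 1.002 and 0 of them were at 0 in any library. Their summed level was 76.3, 80.0 and 86.4 FPKM in crush 1 to 3, against 33.8, 44.1 and 34.05 FPKM in sham 1 to 3. Within the sham group the sum, carried mostly by the C1q genes, was highest in sham 2, where Klf6 was lowest. Of the 7 markers, 5 were highest of the sham libraries in sham 2, while Cx3cr1 and Itgam were lowest there, as Klf6 was. Klf6 is known to be expressed in macrophages, in neurons and in many other cells, and the part of the macrophages in its rise was not tested.

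**Figure D2:**
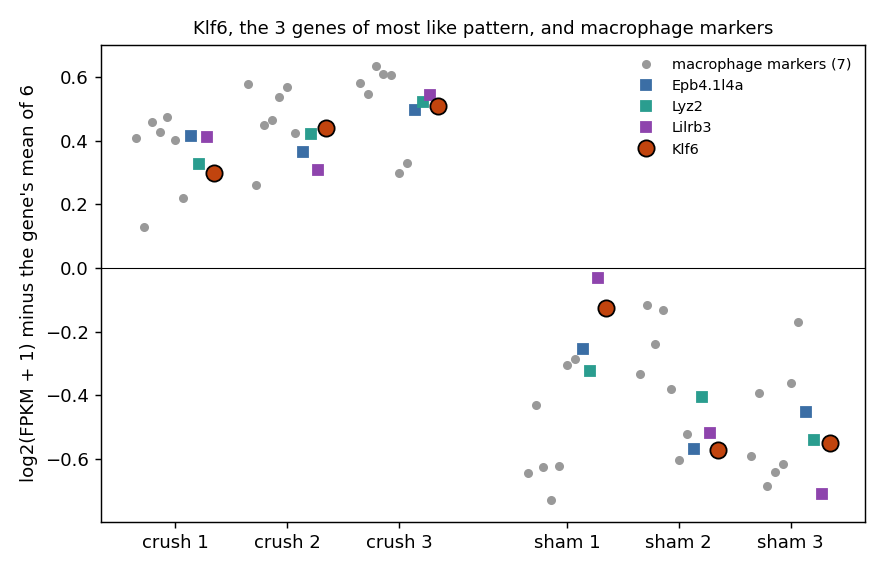
Log2(FPKM + 1) minus each gene's own mean over the 6 libraries (vertical axis) in each library (horizontal axis), for Klf6, the 3 genes of most like pattern and 7 macrophage markers, spread sideways so that they can be told apart. All points lie above 0 in crush and below 0 in sham libraries. Within the sham group Klf6 is highest in sham 1.

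Of 7 satellite glia, 5 Schwann cell, 7 endothelium, 4 pericyte and smooth muscle and 6 fibroblast markers tested, 0 passed with all 6 libraries. Without sham 2 the satellite glia enzyme Glul (limma, adjusted p = 0.0249) and the fibroblast gene Lum (0.0248) passed, both higher in the crush group. Glul passed also with upper-quartile scaling (0.0451), quantile scaling (0.0317) and array weights (0.0166). Glul had the smallest adjusted p of its list, whose median log2 change was 0.08. In that list Fabp7 and Apoe had negative changes (both -0.18), and the other satellite glia markers positive ones. Array weights gave calls for Lum (0.0162) and for the Schwann cell gene Prx (0.0256) too. Far more of all genes passed without sham 2 (1174) and with array weights (1429) than with all 6 libraries unweighted (464). The fibroblast sum was 178 to 189.6 FPKM in crush and 116 to 155 FPKM in sham libraries, and the Schwann cell sum 849.7 to 880.0 FPKM in crush and 714 to 816 FPKM in sham libraries, both without overlap. The endothelium sum, of interest for Klf2 and Klf4, was 21.96 to 24.8 FPKM in crush and 22.2 to 27.0 FPKM in sham libraries, which overlapped. The satellite glia sum was 2205 to 2462 FPKM in crush and 2144 to 3072 FPKM in sham libraries, with sham 2 the highest. The part of these cells in the members' values was not tested.

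Klf7, the most abundant member, had 58.5, 55.6 and 53.4 FPKM in crush 1 to 3, against 50.9, 38.7 and 45.4 FPKM in sham 1 to 3. The groups did not overlap, but the lowest crush and the highest sham library were close. The means were 55.8 ± 2.56 and 45.0 ± 6.14 FPKM (crush and sham, SD, n = 3 each), with a log2 change of 0.31 and a standard error of 0.11, which did not pass (limma, adjusted p = 0.193). It passed under none of 17 alternatives, in which the adjusted p was at least 0.0626.

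The Sin3a-binding members had small differences that did not pass with all 6 libraries. All were positive, as was the change in 8 of the 9 members. Klf10, an early gene of the response to transforming growth factor beta, had 10.1, 10.4 and 10.6 FPKM in crush 1 to 3, against 8.25, 7.69 and 8.73 FPKM in sham 1 to 3. Its groups did not overlap and both were tight, yet it did not pass (log2 change 0.30, standard error 0.07, limma adjusted p = 0.0707). Without sham 2 Klf10 passed (limma, adjusted p = 0.0390), but in that setting 1174 of all 12289 genes passed, against 464 with all libraries. With reference isoforms alone its log2 change was 0.11 (limma, adjusted p = 0.761).

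Klf9, a target of thyroid hormone and of glucocorticoids, had 22.8, 24.2 and 22.4 FPKM in crush 1 to 3, against 21.0, 16.9 and 20.1 FPKM in sham 1 to 3. The groups did not overlap, and sham 2 lay lowest (log2 change 0.25, standard error 0.09, limma adjusted p = 0.221). Without sham 2 the log2 change was 0.16. Klf13, first described in lymphocytes as a regulator of a chemokine gene, had 23.5, 25.5 and 23.8 FPKM in crush 1 to 3, against 20.9, 21.5 and 20.6 FPKM in sham 1 to 3. These groups were also apart by little and did not pass (log2 change 0.20, standard error 0.06, limma adjusted p = 0.165).

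In the other 4 members the groups overlapped. Klf5, known for growth of epithelium and smooth muscle, had 9.12, 10.4 and 9.39 FPKM in crush 1 to 3, against 10.4, 10.97 and 9.81 FPKM in sham 1 to 3, and was the only member with a lower mean after crush (log2 change -0.10, standard error 0.08, limma adjusted p = 0.577). Klf4, a pluripotency factor that also marks epithelium and endothelium, had 1.59, 1.58 and 1.45 FPKM in crush 1 to 3, against 1.02, 1.42 and 1.52 FPKM in sham 1 to 3. Sham 1 was low, and the other sham libraries lay near or within the crush range. The change was 0.14 with a standard error of 0.10 (limma, adjusted p = 0.567), and 0.040 without sham 1.

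The CtBP-binding members were low and variable. Klf3 had 4.23, 2.30 and 4.41 FPKM in crush 1 to 3, against 4.94, 1.72 and 3.25 FPKM in sham 1 to 3, and its SD came to 32.1% of the mean in crush and 48.8% in sham libraries, the widest of the 9. Klf12 had 1.99, 1.77 and 1.596 FPKM in crush 1 to 3, against 1.79, 0.881 and 1.82 FPKM in sham 1 to 3, where sham 2 was low and the other sham libraries lay within the crush range. For both the change was smaller than, or about as large as, its error: 0.15 with a standard error of 0.31 in Klf3 and 0.18 with a standard error of 0.17 in Klf12 (limma, adjusted p = 0.862 and 0.657). Both changes were negative without sham 2, at -0.15 for Klf3 and -0.01 for Klf12. On this log scale a missed threshold does not show that a low gene was the same in both groups.

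**Figure D3:**
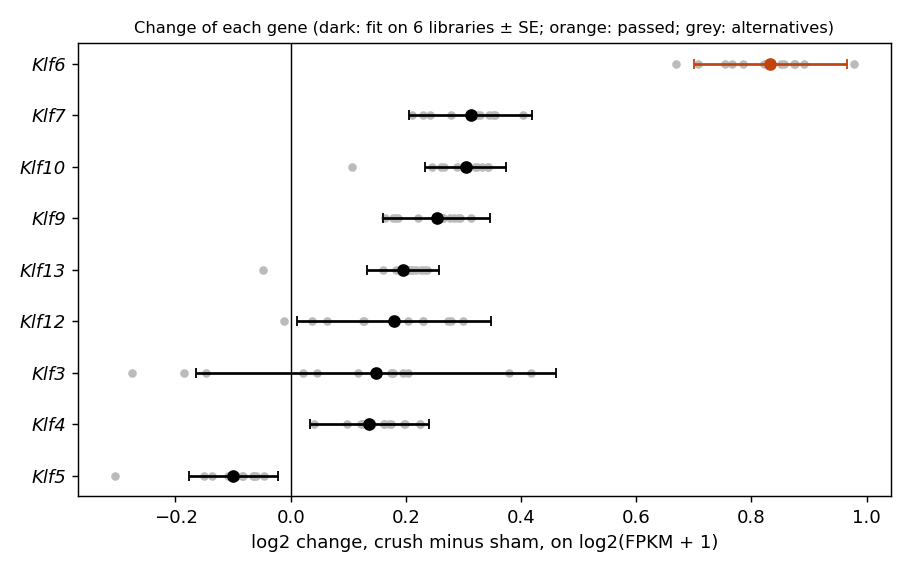
Log2 change, crush minus sham, on the log2(FPKM + 1) scale (horizontal axis) for the 9 genes (vertical axis). Large points are the estimate from 6 libraries with its standard error, in orange where it passed (Klf6, 0.83) and black where it did not, and small grey points are the alternative settings. Klf3, Klf12 and Klf13 have grey points on both sides of 0.

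The start regions of the members that were higher in all crush libraries are shown because these genes shared a direction. RefSeq's promoter table (build GRCm38.p6) holds 7 of the 9 members, all but Klf5 and Klf10. Each window runs from 250 bases before to 50 after the gene's start, 5′ to 3′ on the gene's strand. A gene has a single window, while its isoforms have several starts, and windows were not matched to isoforms. Klf6 has a single isoform, but in Klf7, Klf9 and Klf13 the most abundant isoform starts elsewhere in mm9 than the full-length ones. Klf7_j4 starts at 64089496, against 64167992 for the longest Klf7 isoform, and Klf9_j1 at 23209290, against 23213247 for full-length Klf9. A window is thus not shown to be the promoter of the RNA that was higher. Capitals mark a GC box (GGGCGG) or a CACCC box (CACCC) on either strand, the kinds of sequence that the family itself binds. Where both overlap, the capitals run together. The Klf6 window is chr13:5861239-5861538 on the plus strand, that of Klf7 chr1:64121340-64121639 on the minus strand, that of Klf9 chr19:23140976-23141275 on the plus strand and that of Klf13 chr7:63938866-63939165 on the minus strand.
Klf6: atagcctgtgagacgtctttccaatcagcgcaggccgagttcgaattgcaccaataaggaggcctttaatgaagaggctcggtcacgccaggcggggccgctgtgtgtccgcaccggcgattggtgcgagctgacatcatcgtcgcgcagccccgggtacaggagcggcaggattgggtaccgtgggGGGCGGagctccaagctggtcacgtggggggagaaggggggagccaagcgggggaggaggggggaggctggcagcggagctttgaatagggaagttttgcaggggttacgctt
Klf7: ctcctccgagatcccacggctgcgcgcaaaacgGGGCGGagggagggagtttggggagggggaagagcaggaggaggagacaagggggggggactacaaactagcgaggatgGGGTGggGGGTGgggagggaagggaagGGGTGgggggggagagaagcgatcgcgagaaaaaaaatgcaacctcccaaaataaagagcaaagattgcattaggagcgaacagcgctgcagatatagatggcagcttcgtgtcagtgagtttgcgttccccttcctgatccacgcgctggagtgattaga
Klf9: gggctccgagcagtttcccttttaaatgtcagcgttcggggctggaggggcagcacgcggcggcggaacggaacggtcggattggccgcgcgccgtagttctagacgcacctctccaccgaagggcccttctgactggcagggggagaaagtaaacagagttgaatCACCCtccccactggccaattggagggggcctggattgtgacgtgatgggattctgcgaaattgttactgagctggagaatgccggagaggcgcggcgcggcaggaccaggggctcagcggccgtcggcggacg
Klf13: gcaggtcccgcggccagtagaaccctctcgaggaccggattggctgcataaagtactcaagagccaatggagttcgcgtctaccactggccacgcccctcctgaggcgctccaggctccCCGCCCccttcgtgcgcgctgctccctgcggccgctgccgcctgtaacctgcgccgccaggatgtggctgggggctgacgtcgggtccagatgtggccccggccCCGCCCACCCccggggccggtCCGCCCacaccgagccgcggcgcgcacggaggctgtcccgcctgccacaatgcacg

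The Klf6 window held 1 GC box and 0 CACCC boxes, that of Klf7 held 1 and 3, that of Klf9 held 0 and 1, and that of Klf13 held 3 and 1. Among the 3 other members in the table, Klf3 held 6 GC boxes and 5 CACCC boxes, Klf4 held 4 and 0, and Klf12 held 0 and 1. Of all 32851 promoter windows of this length, 35.7% held a GC box and 57.5% a CACCC box. The windows were also read for letters bound by factors of the injury response. A full CRE (TGACGTCA), the element of Atf3 and its relatives, was in 0 of the 7 and in 1.79% of all windows. An AP-1 site (TGANTCA) and a STAT site (TTCNNNGAA) were each found once, both in the Klf9 window, and in 7.81% and 8.30% of all windows. A TATA box (TATAAA) was in 1 of the 7, that of Klf12, and in 13.6% of all windows. All motifs were read on both strands, and a match of letters is not a site of binding.

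The isoforms of the members have many distinct starts, while nearly all share the start of the last exon. Their 33 isoforms have 31 distinct starts. Some of these lie close together, such as 64167992 and 64167996 in Klf7 (mm9), and they are not shown to be separate promoters. Of the 33 isoforms 32 share the start of the gene's usual last exon, the exception being Klf12_j8. Where they end within that exon also varies and was not counted. The isoforms of Klf9, for example, end between 23242613 and 23242869 (mm9). An isoform whose name ends in j and a number is one of the authors' assembly without a reference identifier, and 9 of the 33 carry one. The coding sequence of each gene's principal transcript in the GENCODE M21 annotation (build GRCm38) was laid over the deposited exons by exon lengths and spacing, with no coordinates converted. The coding part of the last exon, which encodes the end of the zinc finger region, was whole in 32 isoforms. The full coding sequence was held by 14 isoforms, and 10 held under 50% of it.

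In Klf9 and Klf13 most of the signal lay in isoforms that lack the first coding exon. Klf9 has 732 coding bases in 2 exons, and its isoforms Klf9_j1, Klf9_j2 and Klf9_j3 join another first exon to the last exon, which holds 227 of them. These 3 isoforms made up 84.5% to 85.9% of Klf9 FPKM in crush and 83.4% to 87.3% in sham libraries. The isoform with the full coding sequence had 3.31, 3.75 and 3.15 FPKM in crush 1 to 3, against 3.47, 2.14 and 3.14 FPKM in sham 1 to 3, which overlapped. Klf9_j3 had 5.36, 3.97 and 0.972 FPKM in crush 1 to 3, against 4.64, 0 and 3.46 FPKM in sham 1 to 3, so that its level differed more within than between the groups. Klf13 has 867 coding bases in 2 exons, of which Klf13_j1 and Klf13_j2 hold 287. These made up 87.5% to 88.9% of Klf13 FPKM in crush and 84.2% to 86.9% in sham libraries, without overlap. The full-length Klf13 isoform had 2.86, 2.84 and 2.96 FPKM in crush 1 to 3, against 3.31, 3.06 and 2.71 FPKM in sham 1 to 3, so the higher Klf13 total after crush lay in the shorter isoforms. With reference isoforms alone the log2 change of Klf13 was -0.05.

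Klf7 was spread over 7 isoforms. The most abundant, Klf7_j4, begins at a first exon of 57 bases and holds 173 of the 903 coding bases, without those for the amino end. It had 24.8, 25.2 and 20.1 FPKM in crush 1 to 3, against 21.0, 11.1 and 16.03 FPKM in sham 1 to 3, which overlapped (log2 change 0.55, limma, adjusted p = 0.560). The longest isoform, with the full coding sequence, had 20.4, 15.5 and 6.97 FPKM in crush 1 to 3, against 17.1, 1.998 and 11.5 FPKM in sham 1 to 3. Klf7_j2, which holds 801 of the coding bases, had 10.1, 9.50 and 13.1 FPKM in crush 1 to 3, against 5.35, 13.9 and 10.6 FPKM in sham 1 to 3. Both overlapped, and in sham 2 the longest isoform was low where Klf7_j2 was high. The 3 isoforms with the full coding sequence together made up 35.2% to 40.2% of Klf7 FPKM in crush and 33.9% to 42.9% in sham libraries. The share of full-length Klf7 thus overlapped between the groups, as it did for Klf9.

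The other members varied in the same respect. All of the signal of Klf4 and Klf6 was in full-length isoforms. The 3 Klf10 isoforms with another first exon hold 1401 of 1437 coding bases, and the isoform with all of them made up 23.7% to 27.4% of its FPKM in crush and 26.5% to 29.8% in sham libraries, with overlap. The most abundant, Klf10_j1, had 4.26, 5.72 and 6.54 FPKM in crush 1 to 3, against 5.49, 2.93 and 5.55 FPKM in sham 1 to 3, which also overlapped. In Klf5 the isoform Klf5_j1, which holds 1110 of 1338 coding bases, was the main one, at 6.58, 7.74 and 6.67 FPKM in crush 1 to 3, against 5.59, 8.04 and 7.26 FPKM in sham 1 to 3. The full-length Klf5 isoform had 1.80, 2.66 and 2.49 FPKM in crush 1 to 3, against 3.84, 2.93 and 2.54 FPKM in sham 1 to 3. The groups overlapped for both of these isoforms. In Klf3 the full-length isoform ranged widely, from 46.6% to 99.98% of the gene's FPKM in crush and from 54.0% to 64.3% in sham libraries. No Klf12 isoform reached a mean of 1 FPKM, and the most abundant, Klf12_j1, holds 337 of 1206 coding bases.

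**Figure D4:**
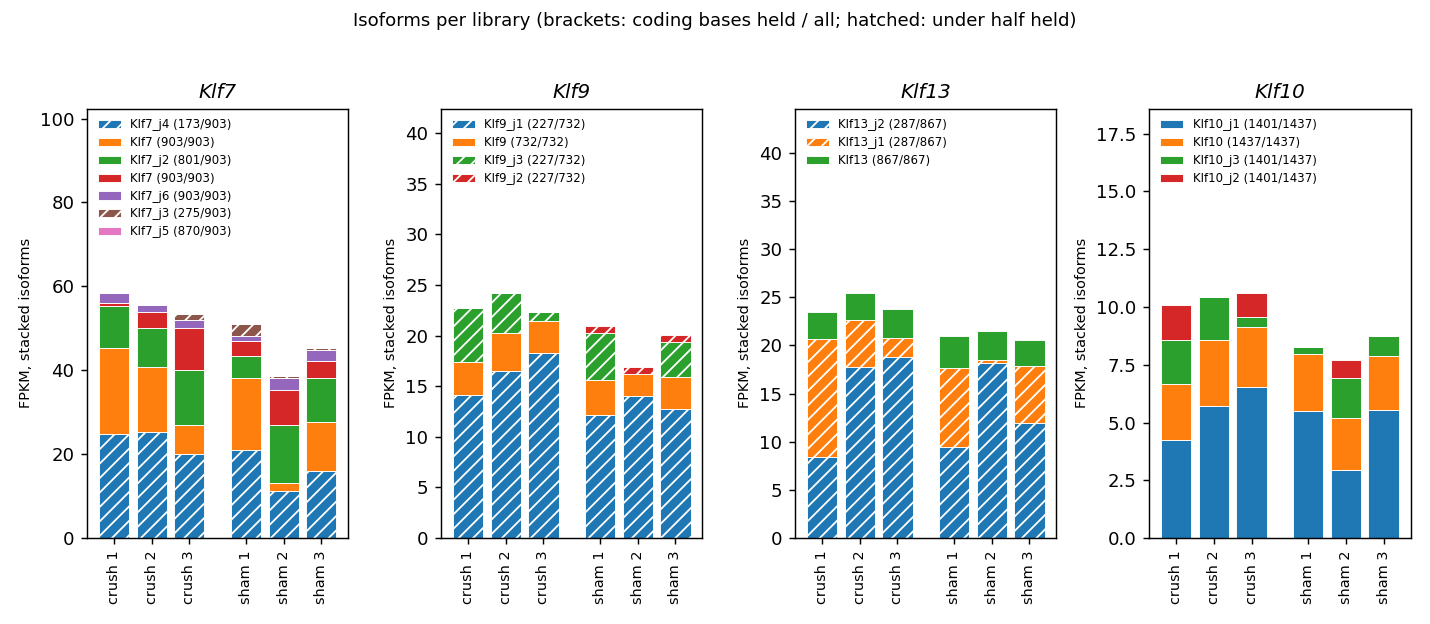
FPKM of the isoforms of Klf7, Klf9, Klf13 and Klf10 (vertical axes) stacked for each library (horizontal axes, crush left of sham). Brackets give the coding bases an isoform holds out of all, and hatching marks isoforms that hold under 50% of them. Some layers vary widely between libraries of a group, for example Klf13_j1, at 1.996 to 12.2 FPKM in crush and 0.280 to 8.20 FPKM in sham libraries.

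In the 6 members with more than 1 isoform of at least 1 FPKM, the median SD of these isoforms, as a percentage of the mean, was larger than that of the gene total in either group, though some single isoforms varied less than the total. In Klf13 the SD of the total was 4.47% of the mean in crush and 2.22% in sham libraries. Its isoforms of at least 1 FPKM had SDs of 2.26% to 84.9% of their means, with a median of 36.3%. Klf13_j1 had 12.2, 4.87 and 1.996 FPKM in crush 1 to 3, against 8.20, 0.280 and 5.92 FPKM in sham 1 to 3. Klf13_j2 had 8.37, 17.8 and 18.8 FPKM in crush 1 to 3, against 9.42, 18.2 and 12.0 FPKM in sham 1 to 3. Within each group Klf13_j2 was high where Klf13_j1 was low, and the groups overlapped in both. The authors' deposited table, from its pooled group values, gives a log2 fold change of -2.07 with a q-value of 1.64e-08 for Klf13_j1 and 0.36 with a q-value of 0.00122 for Klf13_j2. The mean of the per-library values of Klf13_j1 was higher, not lower, in the crush group (log2 change 0.50, standard error 0.89, limma adjusted p = 0.922). That sign rests on single libraries, since the change was -0.38 without sham 2 and -0.048 without crush 1. Beside Klf6, these were the member isoforms with a q-value under 0.05 in the authors' deposited table. That table reports a failed test for all 18 isoforms of Klf3, Klf7, Klf9 and Klf10.

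In limma on the isoforms 0 of the 20 member isoforms tested passed, with 2 at an unadjusted p under 0.05. Of all 24485 isoforms tested 0.0613% passed, and 9.12% had an unadjusted p under 0.05. The smallest adjusted p was that of Klf6 (0.159), which has the same values as the gene. The other at an unadjusted p under 0.05 was Klf9_j1, with 14.1, 16.5 and 18.2 FPKM in crush 1 to 3, against 12.1, 14.01 and 12.8 FPKM in sham 1 to 3 (log2 change 0.30, limma adjusted p = 0.533). Klf9_j2 was listed at 0 in all 3 crush libraries, against 0.724, 0.699 and 0.725 FPKM in sham 1 to 3, and was too low to be tested. Whether isoforms of a gene changed unequally was tested for 6 members with limma's diffSplice, and 0 passed, with unadjusted p-values of 0.192 to 0.940. Of all 6746 genes in that test 0.519% passed.

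No gene passed in 4 lists around the family. Of the 8 further Kruppel-like factor genes looked for, 5 were tested, Klf2, Klf8, Klf11, Klf15 and Klf16, and 0 rose and 0 fell (median log2 change 0.19). The one with the smallest adjusted p was Klf11, a relative of Klf10, with 3.70, 3.57 and 3.41 FPKM in crush 1 to 3, against 3.25, 2.58 and 3.11 FPKM in sham 1 to 3 (limma, adjusted p = 0.308). Of 4 Sp factors tested, zinc finger proteins that bind the same GC boxes, 0 passed (median 0.11), with Sp2 at 4.18 ± 0.335 FPKM in crush and 3.74 ± 0.348 FPKM in sham libraries (SD, n = 3 each; limma, adjusted p = 0.525). Of 15 cofactors, among them the CtBP and Sin3 co-repressors and histone acetyltransferases, 0 passed (median 0.04). The nearest was the ubiquitin ligase subunit Fbxw7, which targets Klf5, at 19.8 ± 1.26 and 22.7 ± 1.24 FPKM (crush and sham, SD, n = 3 each; limma, adjusted p = 0.267). Of 12 hormone receptors and growth factor components known to act on these genes 0 passed (median 0.17), with the receptor Tgfbr2 nearest, at 7.56 ± 0.685 and 6.05 ± 0.379 FPKM (crush and sham, SD, n = 3 each; limma, adjusted p = 0.153).

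Of 7 genes linked to Klf7 in neurons 2 rose, 0 fell and 5 did not pass (median -0.04), while 2.38% of all genes tested rose. Klf7 itself did not pass, and a part of Klf7 in the rise of these genes was not tested. Gap43, a growth-cone protein, had 482, 476 and 606 FPKM in crush 1 to 3, against 266, 317 and 245 FPKM in sham 1 to 3 (log2 change 0.91, limma adjusted p = 0.0220). Cdkn1a, an inhibitor of the cell cycle, had 79.9, 75.0 and 87.4 FPKM in crush 1 to 3, against 38.6, 46.0 and 36.3 FPKM in sham 1 to 3 (log2 change 0.99, limma adjusted p = 0.00832). In both the groups lay far apart. Gap43 passed without sham 2, and without any other library it did not (limma, adjusted p = 0.0706 to 0.0950). Cdkn1a did not pass without crush 1 (0.0625).

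All the members but Klf9 have exons that overlap with no other quantified gene. Those of Klf9, on chromosome 19 from 23209290 to 23242869 (mm9, plus strand), share 7.42% of their bases with an unnamed locus on the same strand. No source states that strand was kept in the libraries. In mm9 Klf7 lies on chromosome 1 from 64075243 to 64168895, Klf13 on chromosome 7 from 71030872 to 71083913 and Klf10 on chromosome 15 from 38224167 to 38230799, all on the minus strand. Klf12 (100265398 to 100683966, minus strand) and Klf5 (99697639 to 99714253, plus strand) both lie on chromosome 14, Klf3 on chromosome 5 from 65194585 to 65224147 on the plus strand and Klf4 on chromosome 4 from 55540030 to 55545197 on the minus strand.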

How the data were processed

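RNA of laser-cut neurons (500 ng a library, poly-A selected) was barcoded and sequenced together on 3 lanes, per the labels' protocols. The authors' deposited table gives FPKM for each isoform and library with its interval; its log2 fold change column, held here as a score because it marks infinity by a very large number, and its p-values and q-values are also the authors'. The submitters' processing notes name TopHat 1.3.2, Cufflinks 1.1.0, Cuffdiff 1.2.1 and the mm9 build. The 33 isoforms had status OK in every library. Depth is unknown because FPKM keeps no read counts. For isoforms of 1 to 10 FPKM the median half-width of the deposited interval was 31.2% to 32.4% of the value.

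FPKM was summed over the isoforms of a gene. Genes or isoforms averaging 1 FPKM or more entered limma (version 3.58.1, R 4.3.3) on the scale log2(FPKM + 1), which understates changes of low genes. The test was 2-sided with moderated variance and a trend, p-values were adjusted by Benjamini-Hochberg over all features, and the threshold was 0.05. The code was tested on simulated data. Other steps used Python (3.11.15) with matplotlib (3.10.9), numpy (2.4.6) and pandas (2.3.3).

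The members, lists and alternatives were chosen with earlier results of these data known. The text names all members, up to 3 isoforms a gene of at least 1 FPKM, the called genes of each list or else the one of smallest adjusted p, and the 3 genes of most like pattern to a called member. Klf9_j2, Klf12_j1, Klf12_j8, Rbfox3, Tubb3, Aif1, Fabp7 and Apoe were named after their values were seen. 1 gene of the Klf7-linked list is not reported here.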

Additional observations from a re-analysis of the deposited data

How the results depend on the processing

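Depth is unknown, which limits every value at low FPKM, and groups of 3 leave 4 residual degrees of freedom. The alternatives were other pseudocounts (0.1, 0.5), no filter or a filter at 5 FPKM, upper-quartile and quantile scaling, limma array weights, a replicate block, reference isoforms only, isoforms of status OK only, and each library left out; leaving out sham 2 and crush 3 together was chosen after seeing the data. Of the values of the 9 genes under these settings, 134 kept direction and side of the threshold, 6 lost the call, 4 gained it and 5 changed sign. No scaling moved the median of all genes by over 0.1. The filter at 5 FPKM left no value for Klf3, Klf4 and Klf12. The cause of the differences was not tested.

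Members called numbered 1, against 2 with array weights (Klf6, Klf10), 0 with the replicate block, 0 of 8 with reference isoforms, 0 to 2 with a library left out and 3 without sham 2 and crush 3 (Klf6, Klf10, Klf13). The Klf6 change was 0.83 with the block (limma, adjusted p = 0.109) and with reference isoforms (0.0708), 0.75 to 0.98 with a library left out and 0.71 without sham 2 and crush 3. Genes called numbered 464 of 12289 tested, against 295 of 8076 at 5 FPKM, 50 with the block and 67 of 8465 with reference isoforms. They numbered 1429 with array weights, 53 to 1174 with a library left out and 1610 without sham 2 and crush 3. Members gained calls only with array weights, without sham 2 (1174 genes) and without sham 2 and crush 3, where far more of all genes were called. Isoforms called numbered 15, against 7 with no filter, 30 with upper-quartile and 42 with quantile scaling, 1355 with array weights, 0 with the block and 0 to 45 with a library left out. With array weights these included Klf6 (adjusted p = 0.0155). Genes with unequal isoform changes numbered 35, against 6 at 5 FPKM, 7 with the block and 11 to 86 with a library left out. Of the same-numbered libraries only those of number 1 deviated together (r = 0.372, -0.309 and -0.486 for numbers 1 to 3). The largest r was 0.590, between crush 3 and sham 2, so the numbers were not taken to pair samples.

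Of the genes that changed sign only Klf13 was called in any setting, without sham 2 and crush 3. Their log2 changes were these. Klf3 was -0.19 with array weights, -0.28 without sham 2 and crush 3, and -0.15 to 0.42 with a library left out. Klf12 was -0.012 to 0.28 with a library left out, and Klf13 -0.048 with reference isoforms. The pericyte marker Acta2 was -0.15 to 0.58 with a library left out and 0.59 without sham 2 and crush 3. Among isoforms, array weights gave -0.055 for Klf10_j1, 0.032 for the full-length Klf13, -0.32 for Klf3_j5 and -0.034 for the reference Klf4. Klf3_j5 was also -0.46 and -0.027 with pseudocounts of 0.1 and 0.5 and -0.049 with quantile scaling. With a library left out the ranges were -0.019 to 0.37 for Klf10_j1, -0.058 to 0.49 for Klf13_j2, -0.38 to 1.05 for Klf13_j1, -0.11 to 0.0016 for the full-length Klf13, -0.10 to 0.44 for the full-length Klf3, -0.30 to 0.57 for Klf3_j5, -0.11 to 0.11 for Klf5_j1, -0.095 to 1.202 for the longest Klf7 isoform, -0.16 to 0.46 for Klf7_j2 and -0.34 to 0.94 for Klf9_j3.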
